A study of Mus musculus with 15 samples.

Results

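Long non-coding RNAs of the nucleus and the host genes of small nucleolar RNAs (snoRNAs) were followed in the RNA of plasma-derived extracellular vesicles (EVs). The group was set by name, as Malat1, Neat1, Gas5, Snhg1, Snhg3, Snhg6, Snhg8 and Snhg12. Of these 8 genes, 7 were read from the 43472 gene rows of the count tables, and Snhg8 was not analysed here. The series held 15 libraries, 3 from WT (C57BL/6) mice, 6 from dystrophic mice null for Sgcb, which encodes beta-sarcoglycan of the muscle membrane, and 6 from hypertrophic mice. The sample labels give the hypertrophic genotype as MAGIC F1, a transgene for an engineered factor that activates the Met receptor, whereas the methods of the study give Mstn-null for these libraries, so that only the condition is used. The mice were 3 to 6 months of age, the EVs of 2 to 3 of them were combined per sample, the labels name no agent given to them, and the low amount of RNA was amplified before the libraries were made. The labels name serum and the methods name plasma as the source of the EVs.

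Malat1 and Neat1 are long non-coding RNAs that stay in the nucleus. Malat1 gathers in nuclear speckles, which are rich in splicing factors, and Neat1 is the RNA scaffold of paraspeckles. The snoRNA host genes work differently: their introns carry snoRNAs, which are cut out, kept in the nucleolus and used to guide the chemical modification and processing of ribosomal RNA, while the spliced exons are joined, exported to the cytoplasm and, for Gas5 and several others, degraded during translation by nonsense-mediated decay. Gas5 was named for its accumulation in growth-arrested cells. EVs bud from the plasma membrane or from endosomes, so RNA of the cytoplasm can enter them directly, whereas RNA of the nucleus has to leave it first.

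The host genes are also known for starting transcription within a run of pyrimidines, the 5′ terminal oligopyrimidine signal shared with ribosomal protein genes. The starts of 5 of the 7 genes were matched in the RefSeq promoter table (GRCm38.p6), with 6 starts in all. They are shown to compare the genes at the base where transcription begins. Each line holds 20 bases before the start and 30 from it on, and the unbroken run of C and T that covers the annotated start is in capitals.
Gas5, first start, chr1:161034581-161034630, plus strand: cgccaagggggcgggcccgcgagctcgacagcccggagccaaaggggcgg
Gas5, second start, chr1:161035146-161035195, plus strand: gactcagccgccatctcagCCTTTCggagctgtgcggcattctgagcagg
Snhg12, chr4:132308658-132308707, plus strand: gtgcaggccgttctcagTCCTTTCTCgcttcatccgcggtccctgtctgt
Snhg1, chr19:8723467-8723516, plus strand: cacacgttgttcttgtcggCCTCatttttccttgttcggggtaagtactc
Snhg3, chr4:132353657-132353706, minus strand: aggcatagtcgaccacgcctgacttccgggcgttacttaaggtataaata
Malat1, chr19:5802643-5802692, minus strand: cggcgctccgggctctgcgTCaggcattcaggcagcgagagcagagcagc
The run was 9 bases long in Snhg12, 6 at the second start of Gas5, 4 in Snhg1 and 2 in Malat1, and no run covered the start of Snhg3 or the first start of Gas5. A run of at least 5 bases covered the start in 10.1% of all 32851 windows of that table. The match is a description of these letters only.

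The other end of the RNA matters for a library that selects polyadenylated RNA, which is how the labels describe these. The last 70 bases of annotated transcripts (GENCODE M21, GRCm38) are shown for this reason, with the polyadenylation signal AATAAA or its variant ATTAAA in capitals where one lay in the last 50 bases of the sense strand.
Neat1, long transcript of 20771 bases: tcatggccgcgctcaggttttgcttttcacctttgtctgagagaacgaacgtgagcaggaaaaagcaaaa
Neat1, short transcript of 3004 bases: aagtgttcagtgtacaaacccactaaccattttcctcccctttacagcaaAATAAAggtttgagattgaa
Malat1, transcript of 6983 bases: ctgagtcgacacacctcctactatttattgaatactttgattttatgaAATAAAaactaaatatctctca
Gas5, transcript of 665 bases: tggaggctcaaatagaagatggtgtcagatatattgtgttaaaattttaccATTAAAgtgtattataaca
Snhg6, transcript of 816 bases: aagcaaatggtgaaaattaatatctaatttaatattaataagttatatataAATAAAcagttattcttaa
Snhg12, transcript of 1538 bases: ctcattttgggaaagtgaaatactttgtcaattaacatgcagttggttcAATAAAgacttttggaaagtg
Neither signal was present at the end of the long Neat1 transcript, whereas the short one held AATAAA 20 bases from its last base. The long form is known to be cut by RNase P and to end in a triple helix instead of a poly(A) tail, and the main mature end of Malat1 is made in the same way upstream of the end printed here. Across all 140988 annotated transcripts, 33.9% held one of these signals in the last 50 bases. The counts join all transcripts of a gene, so the short and the long Neat1 could not be told apart.

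The shallowest library, WT replicate 1, held 27227 reads counted on genes and the deepest, dystrophic replicate 6, held 32563362, and between 797 and 8968 genes had at least 1 read. Values are given as CPM, the reads of a gene for each 1000000 reads on genes in that library. Where no read was found, up to 3 could have been missed by counting error alone, equal to 110 CPM in the shallowest library and 0.0921 CPM in the deepest. Sgcb had 0 reads in all 6 dystrophic and all 3 WT libraries, and 695 reads in hypertrophic replicate 3. Mstn had 0 reads in all 15, so it checked no label, and Sgcb did not tell dystrophic from WT libraries. In 6 libraries (replicates 4 to 6 of dystrophic, 1 to 3 of hypertrophic) the number in the title and that of the counts were crossed between these conditions. Each member is therefore also given with these labels exchanged. Hypertrophic replicate 3 is among them, so the exchange would label as Sgcb-null the only library with Sgcb reads. Whether its label is right was not tested. Genes of blood cells were present throughout: of 7 leukocyte markers, Ptprc, Cd74 and Lyz2 had reads in all 15 libraries and the T cell gene Cd3e in 1, while 3 of 4 erythroid, 3 of 4 platelet and 1 of 3 EV surface markers (Cd9) had reads in all 15. Of 4 skeletal muscle markers none was found in more than 8 libraries, and of 3 hepatocyte markers none in more than 7. Of all these markers edgeR called 1, the hemoglobin gene Hbb-bs, whose reads can be split with its paralog Hbb-bt, at −1.01 on the log2 scale (standard error 0.20, adjusted p = 0.00306) in hypertrophic against dystrophic, and 0 genes were called there with the crossed labels exchanged. Levels in EVs do not tell fewer vesicles from a cell type apart from less RNA per vesicle.

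The family was uneven. Gas5 had reads in 14 of 15 libraries, Neat1 in 7, Snhg6 and Snhg12 in 6 each, Snhg1 in 5, Malat1 in 3 and Snhg3 in 2. Among the 13281 genes with a read in any library, the median gene was detected in 3, and 2.33% were detected in at least as many libraries as Gas5. At least as many libraries as Malat1 were reached by 60.8% of genes. Malat1 is known as one of the most abundant non-coding transcripts of whole cells. The series held no library of whole cells, so a difference between EVs and cells was not tested. A member was often missing from deep libraries. Where the mean CPM of a gene in the other libraries of its condition predicted at least 10 reads, members nevertheless had 0 in 28 of 64 cases (43.8%), against 56.1% of 90572 such cases over all genes. Gas5 had 0 in 1 of its 15 cases, and the other members ranged from 28.6% (Snhg6) to 75.0% (Snhg1 and Snhg3).

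**Figure D1:**
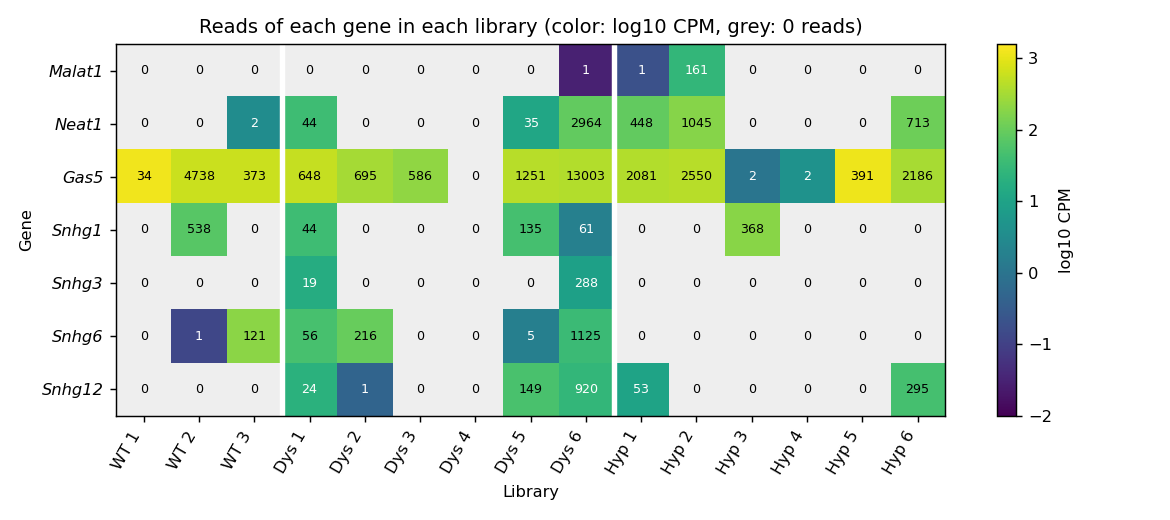
Reads of each of the 7 genes (rows) in each of the 15 libraries (columns, WT, dystrophic and hypertrophic separated by white lines), with color for log10 CPM and grey for 0 reads. Gas5 fills 14 of 15 columns, whereas Malat1 has more than 1 read in hypertrophic replicate 2 alone.

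Gas5 (ENSMUSG00000053332.13, chromosome 1 from 161034422 to 161038539, plus strand) carried most of the signal. In WT-derived libraries it stood at 1249, 612 and 620 CPM, from 34, 4738 and 373 reads. In dystrophic-derived libraries it ranged from 0 to 554 CPM, with a median of 361 CPM. In hypertrophic-derived libraries it ranged from 1.05 to 1189.5 CPM, with a median of 372 CPM. All 3 WT libraries lay above all 6 dystrophic libraries, while the hypertrophic libraries overlapped both. The separation was narrow for counting error. The 95% Wilson interval of dystrophic replicate 1 (513 to 598 CPM) overlapped those of WT replicate 2 (595 to 630 CPM) and WT replicate 3 (560 to 686 CPM). Dystrophic replicate 4 had no Gas5 read among 1608699, where 620 were predicted from the other dystrophic libraries. Hypertrophic replicates 3 and 4 had 2 reads each. The 5 summary lines of the counts, which name no gene, held 99.2%, 57.9% and 96.2% of the numbers in WT replicates 1 to 3. In the dystrophic libraries they held 63.7% to 74.0%. The part of this unlike quality in the Gas5 difference was not tested.

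The 3 WT libraries averaged 827 ± 365 CPM of Gas5 (SD, n = 3). The dystrophic libraries averaged 321 ± 193 CPM (SD, n = 6), and the hypertrophic libraries 397 ± 435 CPM (SD, n = 6). The difference between dystrophic and WT gave p = 0.0238 in an exact two-sided permutation test, the smallest p that 3 against 6 libraries allow, and an adjusted p of 1.0 over the 13281 genes. Genes with every WT library above every dystrophic library made up 0.143% of those 13281 genes, 19 in number, and Gas5 was the one member among them. In the opposite order the share was 0.279%, with WT above hypertrophic 0.143%, hypertrophic above WT 0.0904%, dystrophic above hypertrophic 0.0753% and hypertrophic above dystrophic 0.00753%, and 0 members were among these genes. Between hypertrophic and WT the exact permutation test gave p = 0.143, and between hypertrophic and dystrophic p = 0.747. The order of WT above dystrophic held with CPM over reads without mitochondrial and hemoglobin genes, when WT was at 1141 ± 543 CPM (SD, n = 3) and dystrophic at 389 ± 236 CPM (SD, n = 6), and with the crossed labels exchanged, when dystrophic was at 324 ± 194 CPM (SD, n = 6). Without the 6 libraries with crossed numbers all 3 WT libraries still lay above the 3 dystrophic ones, with p = 0.1 in the exact permutation test, the smallest that 3 against 3 can give.

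**Figure D2:**
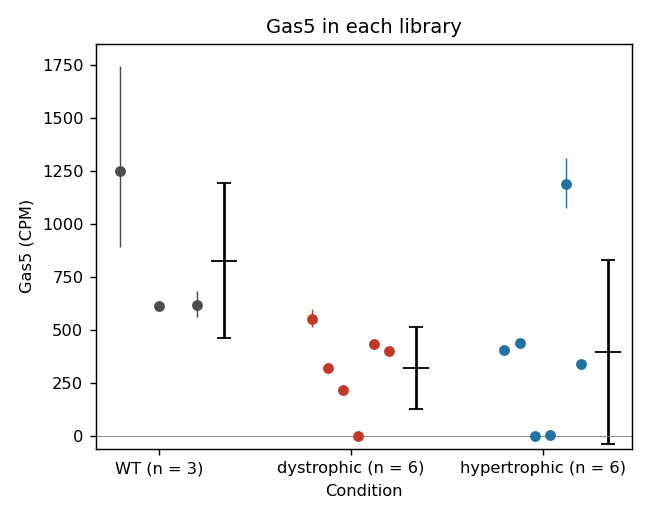
Gas5 in CPM (y axis) in each library of the 3 conditions (x axis), with 95% Wilson intervals for counting error as thin bars where they exceed the point, and the mean with SD beside each group in black. The WT points lie between 612 and 1249 CPM and the dystrophic points between 0 and 554 CPM, and the hypertrophic points run from 1.05 CPM up to replicate 5.

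In edgeR's quasi-likelihood fit of all 15 libraries, Gas5 did not pass the threshold in any comparison. Its log2 fold change was −1.11 (standard error 1.57) in dystrophic against WT, with an adjusted p of 0.953. The median log2 fold change over all 6887 genes tested was 1.38 in that comparison, but 8.15 without WT replicate 2 and 5.18 without WT replicate 3. In hypertrophic against WT the same fit gave −1.31 on the log2 scale (standard error 1.57), with an adjusted p of 0.825, beside a median of 0.66 over all genes, which went to 5.96 without WT replicate 2 and to 0.0586 without hypertrophic replicate 6. In hypertrophic against dystrophic it was −0.20 (standard error 1.32), and its sign turned under other scalings, so no direction is given. The summed level of the platelet markers Pf4, Ppbp, Gp9 and Itga2b was 18259 to 27950 CPM in WT-derived libraries (median 25184), 9262 to 19884 CPM in dystrophic-derived ones (median 12076) and 14290 to 32864 CPM in hypertrophic-derived ones (median 25029). The median summed level of the erythroid markers was 49943 CPM in WT, 60935 CPM in dystrophic and 38143.5 CPM in hypertrophic libraries. For the leukocyte markers it was 1757, 2384 and 2266 CPM in the same order. The part of any of these cells in the Gas5 difference was not tested.

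The genes whose CPM ranked most like Gas5 over the 15 libraries, among 2320 genes detected in at least 8, were Nap1l4 (Spearman's rho 0.83), a histone chaperone, Cdc42ep5 (0.74), an effector of the GTPase Cdc42, and Coro1c (0.71), an actin-binding coronin. These values share libraries and depth with Gas5 and are a description only. Nap1l4 had reads in 10 libraries, Cdc42ep5 in 11 and Coro1c in 8.

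Snhg6 (ENSMUSG00000098234.7, chromosome 1 from 9941959 to 9944118, minus strand), the host of Snord87, was found in most WT and dystrophic libraries and in no hypertrophic one. In WT-derived libraries it had 0, 1 and 121 reads, the last equal to 201 CPM. In dystrophic-derived libraries it had 56, 216, 0, 0, 5 and 1125 reads, or 47.8, 100, 0, 0, 1.73 and 34.5 CPM. In all 6 hypertrophic-derived libraries it had 0 reads, among 20068648 reads on genes. Snhg6 was thus found in 4 of 6 dystrophic, 2 of 3 WT and 0 of 6 hypertrophic libraries. Absence from all hypertrophic libraries was shared by 32.6% of the 13281 genes with a read, and by 2 of the 7 members, the other being Snhg3.

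For pooled reads, the hypertrophic level was set to the limit of 3 counts over the group. Pooled Snhg6 was then at least 218-fold higher in the dystrophic than in the hypertrophic libraries, and at least 176-fold higher without dystrophic replicate 6. Such bounds allow for counting error only, not for the spread between libraries, so they do not bound the level of a condition. Against WT the bound was at least 97.5-fold, but it rested on WT replicate 3, without which 1 read remained. In edgeR's quasi-likelihood fit, Snhg6 had an unadjusted p of 0.0064 in hypertrophic against dystrophic, and its adjusted p was 0.123. For hypertrophic against WT the same fit gave an unadjusted p of 0.00394 and an adjusted p of 0.267. Genes with an unadjusted p under 0.05 made up 12% and 8.02% of the 6887 tested in these comparisons. In DESeq2 the adjusted p-values were 2.16e-17 and 2.09e-12, beside 323 and 1528 genes called (4.69% and 22.2%), with adjusted p-values missing for 645 genes. In the exact two-sided permutation test of mean CPM, hypertrophic against dystrophic gave p = 0.0606 and hypertrophic against WT p = 0.167, each with an adjusted p of 1.0 over 13281 genes. With the crossed labels exchanged, 2 of 6 dystrophic and 2 of 6 hypertrophic libraries had Snhg6 reads, and the log2 fold change of hypertrophic against dystrophic shrank to −1.39. The exons of Snhg6 overlap those of Mcmdc2 on the other strand, and Mcmdc2 had 0 reads in every library.

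Snhg12 (ENSMUSG00000086290.9, chromosome 4 from 132308623 to 132311024, plus strand), the host of Snora16a, Snora44, Snora61 and Snord99, showed the opposite blank. It had 0 reads in all 3 WT-derived libraries. In dystrophic-derived libraries it had 24, 1, 0, 0, 149 and 920 reads, or 20.5, 0.463, 0, 0, 51.6 and 28.3 CPM. In hypertrophic-derived libraries it had 53 reads (10.4 CPM) in replicate 1, 295 reads (45.7 CPM) in replicate 6 and 0 in the other 4. Against the limit of 3 counts over the WT libraries, pooled Snhg12 was at least 70.8-fold higher in the dystrophic libraries, or at least 46.2-fold without replicate 6. It was at least 48.4-fold higher in the hypertrophic libraries, or at least 10.9-fold without replicate 6. These bounds again leave out the spread between libraries. With the crossed labels exchanged, 3 of 6 dystrophic and 3 of 6 hypertrophic libraries had Snhg12 reads. Most of the WT reads came from 1 library, since WT replicate 2 held 7738568 of 8367301. Absence from all WT libraries was common, at 54.8% of genes, and 3 of the 7 members shared it: Malat1, Snhg3 and Snhg12. In edgeR's fit the adjusted p of Snhg12 was 0.433 for dystrophic and 0.434 for hypertrophic against WT, and 1.0 after rounding between hypertrophic and dystrophic.

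Snhg1 (ENSMUSG00000108414.1, chromosome 19 from 8723475 to 8726443, plus strand), whose introns hold a cluster of C/D box snoRNAs, appeared at a high level in single libraries. It had 538 reads (69.5 CPM) in WT replicate 2 and 0 in the other WT libraries. In dystrophic-derived libraries it had 44, 0, 0, 0, 135 and 61 reads, or 37.6, 0, 0, 0, 46.7 and 1.87 CPM. In hypertrophic-derived libraries it had 368 reads (193 CPM) in replicate 3 and 0 in the other 5, although 3 of these were deeper. Hypertrophic replicate 3 had Snhg1 at 193 CPM and Gas5 at 1.05 CPM, so that Gas5 gave 0.541% of the reads of the 7 genes there. Gas5 was also low in hypertrophic replicate 4, at 4.43 CPM, where Snhg1 had 0 reads. With the crossed labels exchanged, 2 of 6 dystrophic and 2 of 6 hypertrophic libraries had Snhg1 reads. Where Snhg1 was predicted to have at least 10 reads, it had 0 in 9 of 12 cases. No comparison of Snhg1 came near the threshold in edgeR's fit (adjusted p = 1.0 in each after rounding), and leaving out a single library turned the sign in all 3 comparisons.

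Snhg3 (ENSMUSG00000085241.7, chromosome 4 from 132348014 to 132353686, minus strand), the host of Snora73a and Snora73b, lies close to Snhg12 on chromosome 4. It was found in dystrophic replicates 1 and 6 only, with 19 reads (16.2 CPM) and 288 reads (8.84 CPM), and had 0 in the other 13 libraries. Pooled, and for counting error only, it was at least 47.7-fold higher in the dystrophic than in the hypertrophic libraries. Without dystrophic replicate 6 it was at least 12.1-fold higher. Against WT the bound was at least 19.9-fold, or at least 5.04-fold without that library. With the crossed labels exchanged, 1 of 6 dystrophic and 1 of 6 hypertrophic libraries had Snhg3 reads, so that neither the bound against hypertrophic nor the limitation to dystrophic libraries held. Snhg3 did not pass the expression filter of the fit to all 15 libraries. When all genes with a read were fitted by edgeR, its unadjusted p was 0.0227 in hypertrophic against dystrophic, with an adjusted p of 0.0836. An unadjusted p under 0.05 was common in that comparison, at 4382 of 13281 genes and 3 of the 7 members. The exons of Snhg3 overlap the cell cycle gene Rcc1 by 135 bases on the same strand. Reads there could have been set aside as ambiguous by the counting. Rcc1 also had reads in 2 libraries.

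Neat1 (ENSMUSG00000092274.3, chromosome 19 from 5824708 to 5845478, minus strand) was found in about as many libraries as it was missing from. In WT-derived libraries it had 0, 0 and 2 reads, the last within the limit of 3 counts. In dystrophic-derived libraries it had 44, 0, 0, 0, 35 and 2964 reads, or 37.6, 0, 0, 0, 12.1 and 91.0 CPM. In hypertrophic-derived libraries it had 448, 1045, 0, 0, 0 and 713 reads, or 87.5, 180, 0, 0, 0 and 110 CPM. Thus 3 of 6 libraries of either muscle model and 1 of 3 WT libraries had a read, and the ranges of all conditions overlapped at 0. With the crossed labels exchanged the counts of libraries stayed at 3 of 6 in each model. The mean was 1.11 ± 1.92 CPM (SD, n = 3) in WT, 23.5 ± 36.2 CPM (SD, n = 6) in dystrophic and 63.0 ± 75.5 CPM (SD, n = 6) in hypertrophic. In edgeR's fit the adjusted p was 0.753 for dystrophic against WT, 0.561 for hypertrophic against WT and 1.0 after rounding for hypertrophic against dystrophic. The exact permutation test gave p = 0.476, 0.476 and 0.348 in the same order. The libraries with Neat1 were rich in detected genes: those with more than 2 reads held 3714 to 8968 genes. Gene number did not separate them fully, since WT replicate 2 (4856 genes) and dystrophic replicate 2 (3705 genes) had no Neat1 read.

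Malat1 (ENSMUSG00000092341.3, chromosome 19 from 5795690 to 5802672, minus strand), the neighbour of Neat1, had 0 reads in all WT-derived libraries and 1 read among the 43071750 of the dystrophic-derived ones, in replicate 6. In hypertrophic-derived EVs it had 161 reads (27.8 CPM, 95% Wilson interval 23.8 to 32.4) in replicate 2, 1 read in replicate 1 and 0 in the other 4. A single library thus gave 98.8% of all Malat1 reads. Without hypertrophic replicate 2, whose label is among the crossed ones, 1 read was left in that condition, and no difference from the other conditions was detectable at this depth. The 3 libraries with a Malat1 read all had Neat1 reads, whereas 4 libraries had Neat1 without Malat1. With the crossed labels exchanged, 2 dystrophic libraries and 1 hypertrophic library had a Malat1 read. Malat1 did not pass the expression filter of the fit to all 15 libraries. When all genes with a read were fitted by edgeR, its unadjusted p was 0.0467 in hypertrophic against dystrophic, with an adjusted p of 0.143. In that comparison 4382 of 13281 genes had an unadjusted p under 0.05.

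The nuclear-retained RNAs were then compared with the exported host transcripts within each library, per kilobase of exon, because Neat1 spans 20.8 kilobases of exon and Snhg3 less than 1. On this scale the mean over 15 libraries was 120 CPM per kilobase for Gas5, 22.4 for Snhg6, 7.83 for Snhg1, 4.35 for Snhg12, 1.70 for Snhg3, 1.68 for Neat1 and 0.267 for Malat1. Gas5 stood apart, with a median of 108 CPM per kilobase, while the median of the other 6 genes was 0 and their order was within the spread between libraries. Malat1 was below the 5 host genes together in 14 of 15 libraries, and in dystrophic replicate 4 both were at 0. It was above them in 0 of 15 (95% Wilson upper limit 20.4%), and the same held for Neat1. In the 7 libraries with Neat1, the hosts together were 13.5 to 2127 times the Neat1 level per kilobase. With Neat1 taken instead over its short transcript of 3004 bases, the hosts were still 1.95 to 308 times the Neat1 level. The lowest ratio was in hypertrophic replicate 2. The hosts were left over all their annotated exons there, so the sides were scaled unlike.

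**Figure D3:**
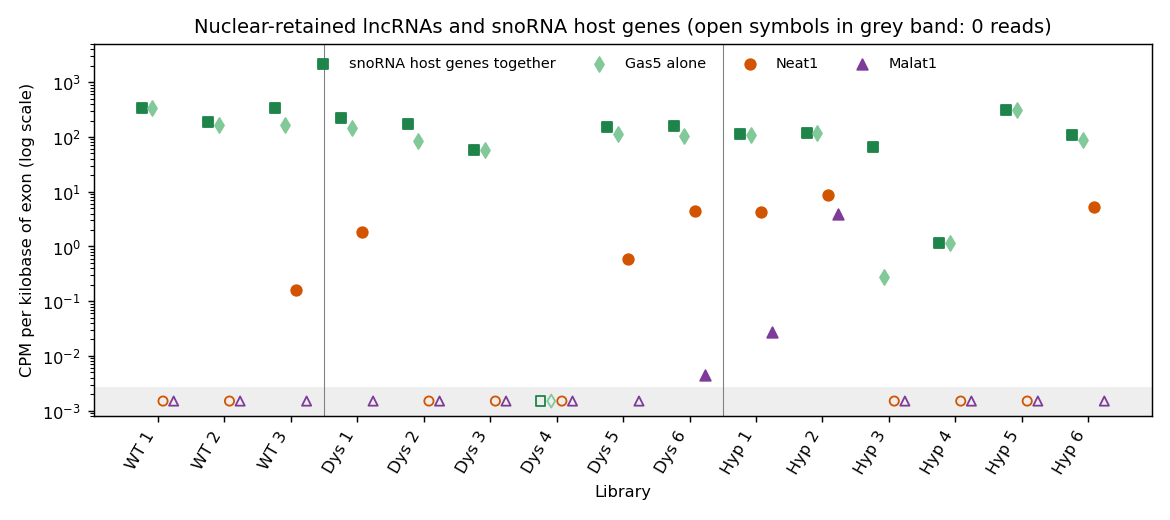
CPM per kilobase of exon (y axis, log scale) in each library (x axis) for the 5 snoRNA host genes together, Gas5 alone, Neat1 and Malat1, with open symbols in the grey band for 0 reads. The green squares lie above the Neat1 and Malat1 points in 14 of 15 libraries, by 13.5 times or more where Neat1 was detected.

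Most of that difference was Gas5. Without it, the other 4 hosts were at 0 per kilobase in 6 libraries, and in hypertrophic replicate 2, with Neat1 at 8.67 and Malat1 at 3.97 CPM per kilobase, the nuclear RNAs were above them. In every other library neither Malat1 nor Neat1 was above the remaining hosts per kilobase of exon. In CPM without length Neat1 was above them in 4 of 15 libraries. Over its short transcript, with the hosts left over all their exons, it was also above them in hypertrophic replicates 1 (29.1 against 4.31 CPM per kilobase) and 6 (36.7 against 19). Gas5 gave 67.9% to 100% of the reads of the 7 genes in the 13 libraries other than dystrophic replicate 4, which had none, and hypertrophic replicate 3. The summed level of the 7 genes was 918 ± 295 CPM (SD, n = 3) in WT, 411 ± 260 CPM (SD, n = 6) in dystrophic and 506 ± 409 CPM (SD, n = 6) in hypertrophic.

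Within the 5 host genes GENCODE M21 places 26 snoRNA loci, 10 in Gas5, 8 in Snhg1, 5 in Snhg12, 2 in Snhg3 and 1 in Snhg6. Rows of the tables matched 23 of them by symbol, and these had 0 reads in all 15 libraries. Of these 23, the 20 in Gas5, Snhg1 and Snhg12 lie wholly inside annotated exons of some host transcript on the same strand, where the counting can set reads aside as ambiguous between host and snoRNA. Mature snoRNAs are also short and carry no poly(A) tail. The values therefore do not show whether snoRNAs were present, and the parts of counting and library preparation were not tested.

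The number of the 7 genes found in a library was 1, 3 and 3 in WT, 6, 3, 1, 0, 5 and 7 in dystrophic and 4, 3, 2, 1, 1 and 3 in hypertrophic. The mean was 2.33 ± 1.15 (SD, n = 3) in WT, 3.67 ± 2.80 (SD, n = 6) in dystrophic and 2.33 ± 1.21 (SD, n = 6) in hypertrophic, and all ranges overlapped. Dystrophic libraries held both the extremes, with no member in replicate 4 and all 7 in replicate 6. Sampled down to 27227 reads, the expected mean was 1.65 in WT, 2.15 in dystrophic and 1.58 in hypertrophic. Across the 15 libraries the number followed the genes detected, with a Spearman's rho of 0.91, more closely than the reads counted, with 0.57, which is given as a description since both come from the same libraries.

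**Figure D4:**
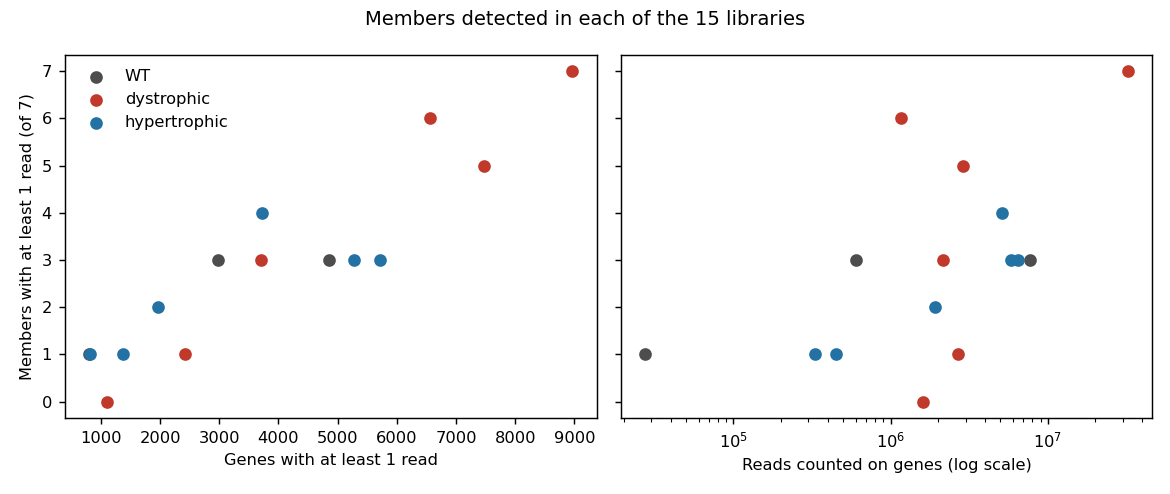
Members with at least 1 read (y axis) against the genes detected (left, x axis) and the reads counted on genes (right, x axis, log scale) in each of the 15 libraries, colored by condition. Dystrophic replicate 4 has none at 1608699 reads and 1103 genes, and dystrophic replicate 1 has 6 at 1170610 reads and 6567 genes.

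By edgeR's quasi-likelihood test across all genes, 5 members could be tested, because Malat1 and Snhg3 did not pass the expression filter. At an adjusted p under 0.05, 0 of the 5 were called in any comparison, beside 0.0145% of 6887 genes in dystrophic against WT, 0.029% in hypertrophic against WT and 0.0145% in hypertrophic against dystrophic. At an unadjusted p under 0.05, 0, 1 and 1 members passed in this order, Snhg6 each time, beside 2.02%, 8.02% and 12% of all genes. DESeq2 called 0, 1 and 1 members, again Snhg6, beside 19.1%, 22.2% and 4.69% of genes. The exact permutation test called 0 members and 0 of 13281 genes in each comparison after adjustment, with 91, 55 and 226 genes at an unadjusted p under 0.05. The biological coefficient of variation was 3.04.

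Genes of the same pathways gave a frame for these values. Of 14 other non-coding snoRNA hosts, 13 had a row and 9 a read, led by Zfas1 (listed as 1500012F01Rik), the host of a trio of C/D box snoRNAs, in 11 libraries at a median of 43.2 CPM. The other 8 had a median of 0, and of these Snhg5 was found in 6 libraries and Snhg4 in 5. Of the 5 tested by edgeR, 0 were called in any comparison. Zfas1 was the one gene of this list found in more than 6 libraries.

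The 22 protein-coding genes with snoRNAs in their introns all had reads, and 12 had them in every library. Their highest medians were 3642 CPM for Rpl13a, 2743 CPM for Rpl4 and 2682 CPM for Rack1 (listed as Gnb2l1), which encode ribosomal proteins and a scaffold bound to the ribosome. Of these 22, edgeR called 0 in either direction in each comparison, with median log2 fold changes of 0.32, −0.42 and −0.93 in the order used above, beside 1.38, 0.66 and −0.52 over all genes. The 8 snoRNP protein genes, whose products bind snoRNAs, were detected in 3 to 11 libraries, with medians of 51.3 CPM for Snu13 (listed as Nhp2l1), 16.2 CPM for Nop58 and 1.39 CPM for Nhp2, and 0 of 8 were called.

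Protein genes of the bodies that Neat1 and Malat1 belong to were uneven as well. The 8 paraspeckle genes had reads in 2 to 13 libraries, led by Hnrnpk at a median of 255 CPM, Nono at 82 CPM and Tardbp at 65.1 CPM. The 6 nuclear speckle genes had reads in 5 to 12 libraries, led by the splicing factors Srsf2 at a median of 114 CPM, Srsf3 at 77.2 CPM and Srsf1 at 72.6 CPM. Of the 7 and 6 tested, 0 were called. The 8 genes of nonsense-mediated decay were sparse, in 4 to 8 libraries, and 0 of 7 tested were called. Smg1, a kinase of this pathway, had reads in 8 libraries at a median of 0.463 CPM.

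Among 16 other long or structural nuclear RNAs, 7 had a read. The imprinted transcript H19, an exported RNA, was the exception, with reads in all 15 libraries at a median of 110 CPM and a range of 3.04 to 1096 CPM. The other 6 had a median of 0, and the highest levels among them, singled out after their values were seen, were 844 CPM for Tug1 (found in 5 libraries), 353 CPM for Pvt1 (in 2) and 139 CPM for Rian (in 5). Of the 3 tested, 0 were called in any comparison.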

How the data were processed

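Plasma-derived EV RNA-seq of 15 libraries was analysed. According to the sources, RNA was pre-amplified, prepared with TruSeq chemistry (the labels name a stranded mRNA kit, the methods another version), read from 1 end and aligned with TopHat to mm10. HTSeq and DESeq are named in the submitters' processing notes. The annotation and strand setting are not given in the sources used here. The authors deposited raw counts per gene symbol for each library, without normalization. The 5 summary lines of each table (57.9% to 99.2% of its numbers) name no gene and were dropped. Of 43472 symbols, 39483 matched GENCODE M21, which gave identifiers, positions and exon lengths. Starts came from RefSeq (GRCm38.p6).

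CPM was computed over all gene rows. Counts were tested with edgeR 4.0.16 (R 4.3.3, limma 3.58.1) with TMM, filterByExpr and a quasi-likelihood fit of all 15 libraries. Benjamini-Hochberg adjustment was over 6887 genes, at 0.05. Standard errors for edgeR were back-calculated, as the absolute log2 fold change divided by the square root of the test's F statistic. Alternatives were DESeq2 1.42.0, other scalings, filters and library sets, and an exact permutation test of mean CPM (the one-sided p on the smaller side, doubled). Simulated data were used to check the procedures. Such a check does not show how they perform at the spread of these libraries (biological coefficient of variation 3.04). A count of 0 allows 3 counts, for counting error only, and Wilson intervals are at 95%. Libraries were grouped by their labels, and replicate numbers only name them. The sources do not say which mice went into which library, so libraries of a condition may share animals or litters. The tests treat the libraries as independent, and their p-values measure the spread between these samples only.

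Every member is named, and from each pathway or marker list (other non-coding, and protein-coding, snoRNA hosts, other nuclear RNAs, snoRNP, paraspeckle, speckle and decay genes, and markers of blood cells, muscle, liver and EVs) the leading 3 genes by median CPM, where reported here. Members and lists were chosen with earlier results of these data known.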

Additional observations from a re-analysis of the deposited data

Results flagged for a closer look

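Single libraries stood far from the rest of their condition for 4 of the 7 genes, with a gap to the nearest library above the 95% limit for a group of 6 samples (0.625 of the group's range). Chance gives about 1 in 20 such groups if values follow a normal distribution, and 12 groups with reads were looked at here. Many of these groups held mostly 0, so a single library with reads is enough to stand apart. The rate of 1 in 20 does not hold for them. Malat1 was at 27.8 CPM in hypertrophic replicate 2, from 161 reads, while the next library had 1 read. Malat1 in dystrophic replicate 6, at 0.0307 CPM, was a single read against 0 in the others. Snhg1 was at 193 CPM in hypertrophic replicate 3, from 368 reads, against 0 in the other 5. Snhg12 was at 45.7 CPM in hypertrophic replicate 6, from 295 reads, above replicate 1 by 0.773 of the range. Gas5 was at 1189.5 CPM in hypertrophic replicate 5, from 391 reads in a library of 328710, with a gap of 0.631 of the range.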

How the results depend on the processing

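No paired analysis was possible because replicate numbers only name the libraries. The number of genes called in dystrophic against WT, hypertrophic against WT and hypertrophic against dystrophic was 1, 2 and 1, and changed to 1315, 1528 and 323 with DESeq2 and to 0, 0 and 0 with all genes with a read, without mitochondrial and hemoglobin genes, and in the permutation test. Dystrophic against WT gave 3 genes without TMM, 2 with the 6 labels exchanged and 3 without those libraries, and hypertrophic against dystrophic gave 0 in the last pair of settings. Leaving out each library gave 1 to 2, 1 to 3 and 0 to 2 genes.

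The 15 fold changes of members were recomputed in 330 cases, of which 310 kept sign and side of the threshold, 18 changed sign and 2, both Snhg6 in DESeq2, passed the threshold. The causes were not tested. With the labels exchanged, the log2 fold change in hypertrophic against dystrophic was −0.32 for Neat1, 0.15 for Gas5, −1.67 for Snhg1 and 2.26 for Snhg12, and that of Snhg1 in dystrophic against WT was 0.24. Gas5 in hypertrophic against dystrophic was 0.22 with DESeq2 and 0.29 without TMM, and ranged from −0.52 to 0.0572 with 1 library left out. Snhg1 in hypertrophic against WT was 0.45 with DESeq2, 0.42 without TMM and 0.0029 with TMMwsp. With 1 library left out, Snhg1 ranged from −1.82 to 9.10 in dystrophic against WT (the highest without WT replicate 2), from −9.97 to 9.88 in hypertrophic against WT and from −9.28 to 1.43 in hypertrophic against dystrophic (the lowest without hypertrophic replicate 3), and Snhg6 in dystrophic against WT from −2.33 to 7.51 (the highest without WT replicate 3).

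The Gas5 difference of WT over dystrophic, 506 CPM, ran from 295 CPM without WT replicate 1 to 613 CPM without WT replicate 2, and exact p was 0.0714 without any 1 of the WT libraries, the smallest that 2 against 6 allow. The alternatives for Gas5 and the short Neat1 transcript were chosen after seeing the data. The number of members found moved by less than 1 SD, and Malat1 or Neat1 stayed above the hosts in 0 libraries, under every alternative listed. This rested on Gas5 being among the hosts. With Gas5 left out, Neat1 was above the other hosts in 4 of 15 libraries in CPM and in 1 per kilobase of exon. Depth limits WT most, where replicate 1 could hide 110 CPM.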
